A study of Homo sapiens with 18 samples.

Results

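The change in translational efficiency between human pluripotent stem cells (hPSC) and definitive endoderm (DE) was measured with ribosome footprints recovered through a FLAG tag on the ribosomal protein RPL22. Translational efficiency (TE) is the ratio of a gene's footprints to its RNA, and its change is the footprint-to-RNA difference in DE minus that in hPSC, on the log2 scale. Protein-coding genes with at least 10 counts in every one of the 8 libraries involved entered, which left 10383 of 19202 protein-coding rows and of 57808 rows in all. The 4 groups had 2 libraries each: RNA from hPSC, RNA from DE, FLAG footprints from hPSC and FLAG footprints from DE. All 8 libraries came from the MEL1 INSGFP/W line, a human embryonic stem cell line with GFP at 1 insulin allele, and carried the RPL22-FLAG genotype, so no untagged control is among them. The hPSC were undifferentiated cells kept on Matrigel, and the DE is the first stage of a suspension protocol that leads to beta-like cells. No age, time point or agent is given for either stage in the labels, and whether both libraries of a group were grown separately is not said. The p-values therefore measure the spread between these libraries only.

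Ribosome profiling reads the short RNA stretches that ribosomes protect from nuclease, and an mRNA carrying more ribosomes gives more footprints per molecule. Several classes of mRNA are regulated at this step. Terminal oligopyrimidine (TOP) mRNAs, which encode ribosomal proteins and elongation factors, begin with a C followed by a run of pyrimidines and are repressed by LARP1 when mTOR activity is low. A different class, exemplified by ATF4, has short reading frames upstream of the coding sequence and is translated relatively better when the initiation factor eIF2 is phosphorylated. Definitive endoderm forms from pluripotent cells under Nodal or activin signalling and switches on SOX17, FOXA2, GATA6 and CER1 while POU5F1 and NANOG fall.

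RNA libraries held 79772906 to 92533993 estimated counts, and FLAG libraries held 6606248 to 23110461. The shallowest was DE FLAG library 1, in which the 5.8S ribosomal RNA gene RNA5-8SN2 took 4.85% of counts. RNA replicates agreed closely, with a standard deviation (SD) of the log2 difference of 0.13 in hPSC and 0.12 in DE. FLAG replicates differed more, by 0.41 in hPSC and 0.58 in DE. Among the protein-coding rows left out, 3845 of 8819 missed the minimum through a FLAG library alone. The lowest count of an included gene was 10 and the highest minimum of an excluded one was 9.999, and 1147 included genes had a minimum under 20. Summed RNA of the 30 listed definitive endoderm genes was 157 and 159 CPM (counts per 1e6 counts) in hPSC and 6300 and 6650 in DE, scaled to library totals. Summed RNA of the 30 pluripotency genes was 19000 and 20300 in hPSC and 7170 and 7260 in DE. Mesoderm genes summed to 36.8 to 49.7 CPM over all 4 RNA libraries, neural and surface ectoderm genes to 399 to 658, and extraembryonic genes to 29.5 and 32.2 in hPSC against 81.1 and 104 in DE. TBXT, MESP1 and CDX2, which define mesoderm and trophectoderm or hindgut, stayed at or below 1.66 CPM in RNA. GATA3, a trophectoderm and surface ectoderm marker, was at 1.12 and 0.958 CPM in hPSC and 52.0 and 42.6 in DE, and PAX6, a neural marker, at 1.37 and 0.806 against 26.6 and 28.1. The part of such cells in the results was not tested. In bulk libraries fewer cells expressing a gene and less RNA per cell cannot be told apart.

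The tagged gene itself was measured first. RPL22 RNA was 486 and 521 CPM in hPSC and 363 and 378 in DE after TMM scaling, the scale of every single-gene level below. Its FLAG footprints were 2530 and 2370 in hPSC and 1460 and 2010 in DE. The change in TE was -0.05 ± 0.24 (SE, adjusted p = 1.0 in edgeR's quasi-likelihood test), and the levels of TE in both stages overlapped. RPL22L1, the paralogue of RPL22, had less RNA in DE (30.9 and 35.9 CPM in hPSC, 9.84 and 9.45 in DE). The gene had a change in TE of -0.79 ± 0.24, with no overlap between the libraries of the stages, and it was not called by edgeR (adjusted p = 0.253) but called lower by DESeq2 (adjusted p = 0.000984).

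RNA and footprints of many genes differed between hPSC and DE, and few genes were called for a change in their ratio. RNA of 1975 members rose and that of 2665 fell, and FLAG footprints of 2585 rose and those of 2253 fell (edgeR, adjusted p under 0.05). For the change in TE, 6 members were called higher and 4 lower. Over all 21488 genes tested, 0.107% were called higher and 0.0512% lower. The smallest change called was 1.5 on the log2 scale. DESeq2's Wald test on the same counts called 250 members higher and 401 lower, against 2.61% higher and 3.09% lower over its 16905 genes. The 10 genes edgeR called were all called by DESeq2 too.

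The spread of the values shows how much of this lies above the replicate differences. Over the members the change in TE had a median of 0.14 and an SD of 0.49, and the replicate differences alone give an SD of 0.36. The median depends on the scaling (-0.05 and -0.03 with the other 2 scalings tried), so list medians below are also given relative to the median member. With those scalings the split of calls moved from 6 higher and 4 lower to 4 and 6 (RLE) or 2 and 5 (upper quartile). A log2 change above 1 was seen in 544 members and one below -1 in 66. At an unadjusted p under 0.05 edgeR gave 1321 members higher (12.7%) and 231 lower (2.22%). Once each library was centred on its own median, TE was also taken with each FLAG library against each RNA library of its stage. All such DE values lay above all hPSC values in 1567 members (15.1%) and below them in 2426 (23.4%). Members of low level had higher values: the median change was 0.28, 0.23, 0.13 and -0.04 over 4 groups of equal size from the lowest to the highest mean level, and the median SE was 0.34 in the lowest and 0.23 in the highest.

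**Figure D1:**
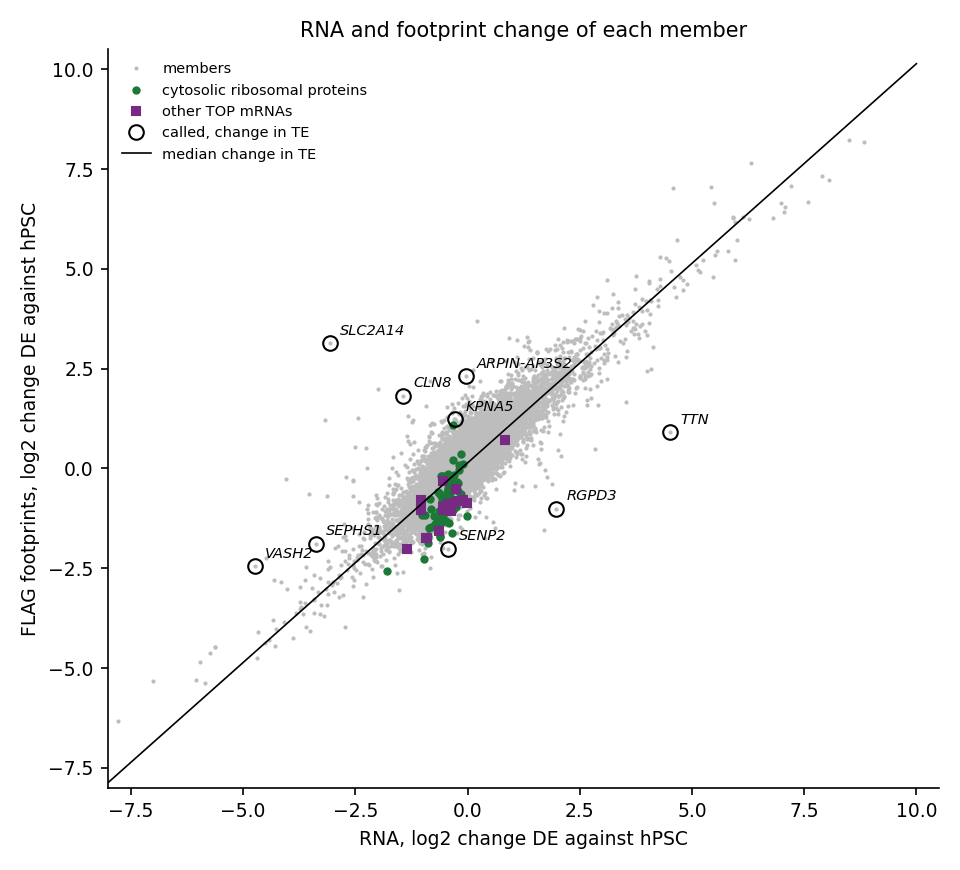
Each point is a member, with its log2 RNA change (x) and log2 FLAG footprint change (y), DE against hPSC, and the line marks the median change in TE of 0.14. Of the 10 called members 9 are marked (open circles) and lie away from the line, and ribosomal protein (green) and other TOP mRNAs (purple) lie mostly below it.

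Of the members called higher, VASH2 and SEPHS1 had lost RNA in DE and had lost less of their footprints. VASH2, a vasohibin that removes the terminal tyrosine of alpha-tubulin (chromosome 1, 212950541 to 212991585 on GRCh38), had 133 and 141 CPM of RNA in hPSC and 4.9 and 5.34 in DE. Its FLAG footprints were 41.3 and 36.7 CPM in hPSC and 7.99 and 6.56 in DE. RNA fell by 4.74 on the log2 scale, footprints fell by 2.45, and TE rose by 2.29 ± 0.21 (edgeR adjusted p = 0.0239). Both levels fell with no overlap between stages, and the footprints fell less. SEPHS1, which is related to selenophosphate synthetase (chromosome 10, 13317428 to 13348293), had RNA of 1010 and 1070 CPM in hPSC and 98.5 and 100 in DE. Its footprints were 558 and 658 CPM in hPSC and 162 and 167 in DE, so that footprints exceeded RNA in DE only. TE rose by 1.5 ± 0.18 (edgeR adjusted p = 0.045).

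KPNA5 and ARPIN-AP3S2 had nearly constant RNA and more footprints in DE. KPNA5, an importin alpha that carries proteins into the nucleus (chromosome 6, 116681211 to 116741867), had RNA of 27.7 and 30.3 CPM in hPSC and 24 and 23.9 in DE. Footprints were 6.03 and 6.33 CPM in hPSC and 14.1 and 15 in DE, and TE rose by 1.51 ± 0.19 (edgeR adjusted p = 0.0487). Its FLAG counts were 76 in both hPSC library 1 and DE library 1, so the difference in CPM rests on few counts in the shallower library. ARPIN-AP3S2 is a readthrough gene (chromosome 15, 89830599 to 89912952) that overlaps ARPIN and AP3S2 and shares exons with them, so counts can be split among the 3 genes and its value is uncertain. Its RNA was 23.9 and 21.8 CPM in hPSC and 22.6 and 22.2 in DE. Footprints were 2.94 and 3.78 CPM in hPSC and 18.8 and 15 in DE, and TE rose by 2.34 ± 0.26 (edgeR adjusted p = 0.0407). AP3S2, a subunit of the AP-3 vesicle adaptor, had a change in TE of -0.17 ± 0.21.

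CLN8 and SLC2A14 had less RNA and more footprints in DE, with low footprint counts in CLN8 and a close relative of SLC2A14 as limits. CLN8, an ER cargo receptor for lysosomal enzymes on chromosome 8, had RNA of 116 and 140 CPM in hPSC and 46.9 and 47.6 in DE. Its footprints were 1.83 and 1.58 CPM in hPSC and 7.43 and 5.07 in DE, from 23 to 82 counts a library, and TE rose by 3.26 ± 0.30 (edgeR adjusted p = 0.0239). An antisense gene, CLN8-AS1, overlaps it. SLC2A14, a glucose transporter nearly identical to SLC2A3 (chromosome 12, 7812514 to 7891196), had RNA of 2.01 and 1.99 CPM in hPSC and 0.243 and 0.232 in DE. Its footprints were 5.16 and 7.36 CPM in hPSC and 82.9 and 28.9 in DE, and TE rose by 6.20 ± 0.70 (edgeR adjusted p = 0.0407). SLC2A3 had RNA of 77.6 and 78.9 CPM in hPSC and 433 and 403 in DE, with footprints of 94.6, 76.7, 626 and 482 in the same order. The change in TE of SLC2A3 was 0.28 ± 0.24. Short footprints may not always separate both genes, which was not tested, so the value of SLC2A14 is uncertain.

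Of the members called lower, SENP2 lost more footprints than RNA. SENP2 is a protease that removes SUMO (chromosome 3, 185586295 to 185633551), and the ribosomal protein pseudogene RPL34P10 overlaps it. It had RNA of 64.9 and 72 CPM in hPSC and 51.7 and 50.2 in DE. Its footprints were 57.1 and 59.1 CPM in hPSC and 14.7 and 14.2 in DE, and TE fell by 1.58 ± 0.17 (edgeR adjusted p = 0.0407). The footprint levels of the stages lay far apart while the RNA levels were close.

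TTN and RGPD3 were also called lower. TTN, the giant muscle protein titin (chromosome 2, 178525989 to 178807423), had RNA of 20 and 21.5 CPM in hPSC and 460 and 486 in DE. Its footprints were 6.19 and 4.47 CPM in hPSC and 10 in each DE library, and TE fell by 3.59 ± 0.24 (edgeR adjusted p = 0.0193). RNA thus rose by 4.51 on the log2 scale and footprints by 0.92. Total footprints, taken without the FLAG step, had 1 library that stood apart: protein-coding genes held 40.6% of counts in DE total library 1, against 76.2% in DE total library 2 and 80.4% and 82% in hPSC. With total footprints in place of FLAG footprints the change in TE of TTN was 1.08 ± 1.04, of the other sign and not called (edgeR adjusted p = 0.707). Without DE total library 1 it was -0.83, of the same sign as with FLAG footprints. Without DE total library 2 it was 1.49, of the other sign. TTN overlaps its antisense gene TTN-AS1. RGPD3, a member of the RANBP2-like family of near-identical copies, had RNA of 0.395 and 0.334 CPM in hPSC and 1.52 and 1.34 in DE but footprints of 843 and 685 and of 305 and 456. TE fell by 2.97 ± 0.33 (edgeR adjusted p = 0.0407). Its relatives RGPD8 (-0.97 ± 0.28) and RANBP2 (-0.42 ± 0.20) were not called, and RGPD8 too had far more footprints (1410 to 2950 CPM) than RNA (8.36 to 27.4), so the split of footprints among the copies is uncertain.

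**Figure D2:**
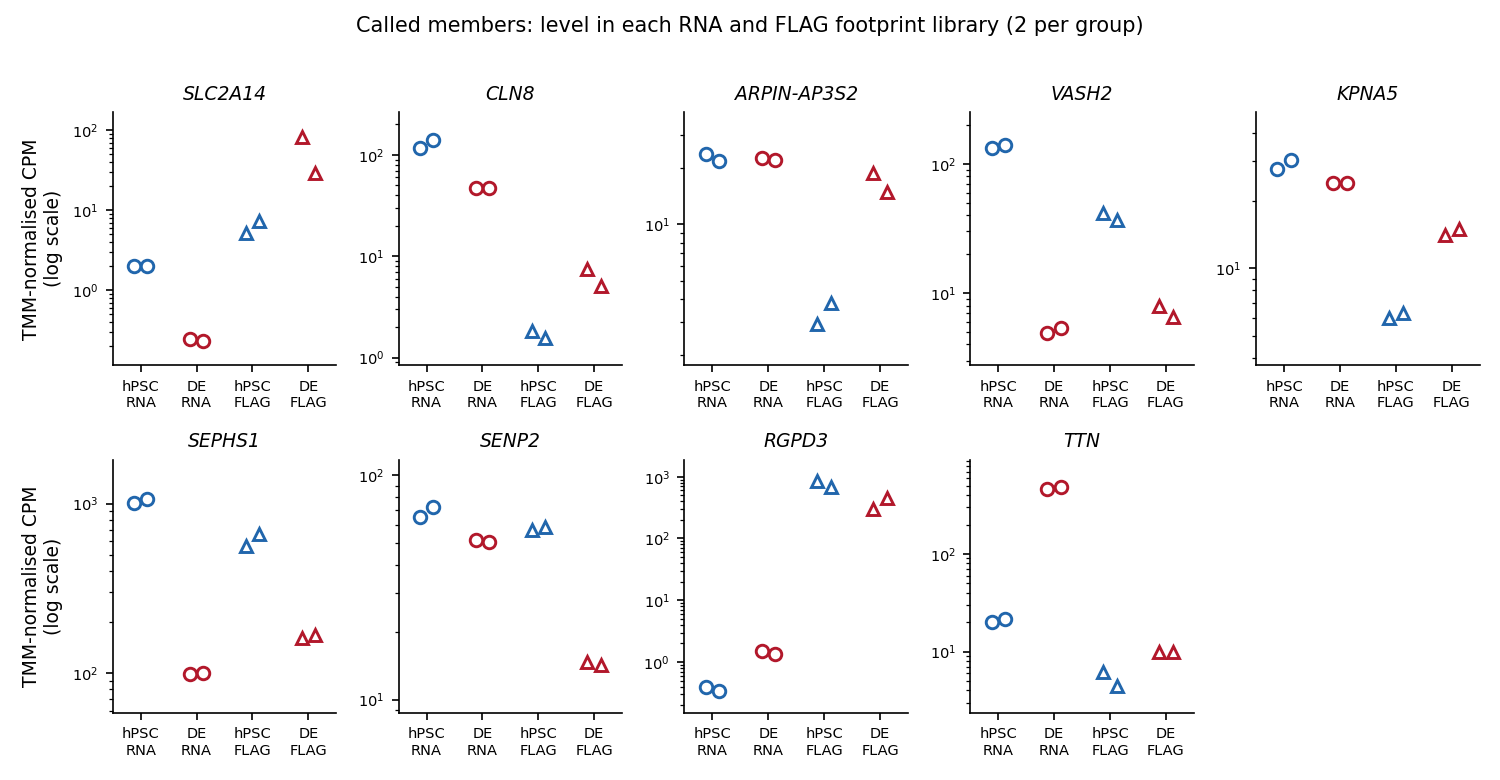
Level of 9 of the 10 called members (y, TMM-normalised CPM, log scale) in each library, circles for RNA and triangles for FLAG footprints, blue for hPSC and red for DE. In TTN RNA was 20 and 21.5 CPM in hPSC and 460 and 486 in DE with footprints at or below 10, and in SENP2 footprints fell from 57.1 and 59.1 to 14.7 and 14.2 with RNA close.

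These calls rest on small numbers of libraries. Leaving out any 1 of the 4 RNA libraries ended all 10 calls (adjusted p from 0.126 to 0.425), and leaving out either hPSC FLAG library kept 1, whereas all 10 were kept without either DE FLAG library. The count of called members was 71 without DE FLAG library 1 and 3095 (412 higher and 2683 lower) without DE FLAG library 2, which leaves library 1, with 6606248 counts, as the lone DE footprint sample.

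Ribosomal protein mRNAs had high TE in both stages and lower TE in DE than in hPSC. In hPSC the median TE of the 80 cytosolic ribosomal protein genes was 1.48 and 1.52 (log2, relative to the median member) in the FLAG libraries, and in DE it was 0.92 and 0.95. Their median change in TE was -0.42, or -0.56 relative to the median member, and 65 of the 80 lay below it. No gene of the list was called by edgeR in either direction. At an unadjusted p under 0.05 it gave 30 lower (37.5%, against 2.22% of all members) and 0 higher. DESeq2 called 35 lower (43.8%, against 3.86% of all members) and 0 higher. In 55 (68.8%, against 23.4% of all members) DE lay below hPSC without overlap after centring, each FLAG library being set against each RNA library. The changes ran from -1.29 to 1.4.

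Values at a like level are given beside this count. Ribosomal protein mRNAs are abundant, and the 122 other members at or above the lower quartile of their level had a median change of -0.15 (-0.29 relative to the median member). DESeq2 called 14 of these lower (11.5%), and 57.4% had DE below hPSC without overlap after centring. The part of expression level in the result was not tested. Ribosomal protein genes also have many processed pseudogenes, which can take a share of their short reads.

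Another 19 TOP mRNAs, a list of elongation factors, initiation factors and other known TOP messages, gave like values. Median TE was 1.70 and 1.59 in the hPSC FLAG libraries and 1.03 and 1.17 in the DE libraries, and the median change was -0.51 (-0.65 relative to the median member). edgeR called none in either direction and gave 7 lower (36.8%, against 2.22% of all members) and 0 higher at an unadjusted p under 0.05. DESeq2 called 9 lower (47.4%, against 3.86%), and 15 (78.9%, against 23.4%) had DE below hPSC without overlap after centring. With total footprints, which share the RNA libraries, the relative medians were -0.56 for ribosomal proteins and -0.57 for the other TOP mRNAs. They were -0.57 and -0.53 without DE total library 1, and -0.55 and -0.58 without DE total library 2. The sign of both medians was the same in these fits. It was also the same in the 21 alternatives, which used FLAG footprints except for the fit with total footprints. Their ranges were -0.59 to -0.49 and -0.70 to -0.54.

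Windows of 30 bases around the annotated transcript start show the feature that names the class: 15 bases before the start and 15 from it on, RefSeq, GRCh38.p14, 5′ to 3′. Capitals mark an unbroken run of C and T, 5 bases or longer, that begins with a C at the start itself. Here 5 TOP genes with such a run are shown with a ribosomal protein gene and a called gene that have no run of that length at the annotated start.
RPS6 (chr9:19380222-19380251, minus strand): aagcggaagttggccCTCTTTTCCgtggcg
RPL22 (chr1:6199581-6199610, minus strand): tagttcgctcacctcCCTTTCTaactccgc
EEF1A1 (chr6:73521018-73521047, minus strand): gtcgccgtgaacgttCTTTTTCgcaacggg
TPT1 (chr13:45341169-45341198, minus strand): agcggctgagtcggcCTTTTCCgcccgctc
EEF2 (chr19:3985449-3985478, minus strand): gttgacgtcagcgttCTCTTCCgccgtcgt
RPL3 (chr22:39319609-39319638, minus strand): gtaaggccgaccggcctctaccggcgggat
SEPHS1 (chr10:13348279-13348308, minus strand): cccccttcccgggccgcacgccgccaccca

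The start motif searched was a C at the annotated start followed by 4 bases that are each C or T, on the gene's own strand. It was present in 44 of the 64 ribosomal protein genes matched (68.8%) and in 10 of 13 other TOP genes (76.9%). Over all 27305 promoters of the table it was present in 4.04%, and over the 8610 members matched in 5.78%. The 444 members that have the motif and are in neither list had a median change in TE of 0.10 (-0.03 relative to the median member). DESeq2 called 25 of these 444 lower and 9 higher. Over all members it called 3.86% lower and 2.41% higher. A match is a description of the annotated start and not of the start used in these cells.

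Single TOP genes show the sizes. EEF1A1, which brings aminoacyl-tRNA to the ribosome, had footprints of 58100 and 48700 CPM in hPSC and 16400 and 19600 in DE, against RNA of 9080, 9510, 5880 and 6000. Its change in TE was -0.92 ± 0.21 (adjusted p = 0.193 in edgeR and 1.24e-06 in DESeq2). RPS6, a small subunit protein and S6 kinase substrate, had footprints of 5860 and 4860 CPM in hPSC and 2030 and 2270 in DE, against RNA of 948, 983, 592 and 614, and a change of -0.64 ± 0.20 (adjusted p = 0.265 and 0.000292). In both genes RNA fell and footprints fell further, with no overlap between stages.

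RPL31, RPL34, RPL23A, EEF1G and RACK1 were named after their values were seen. RPL31 and RPL34, of the large subunit, changed by -1.26 ± 0.29 and -1.13 ± 0.28 (DESeq2 adjusted p = 0.000134 and 0.000936). RPL23A, at -0.84 ± 0.18, had footprints of 3420 and 3690 CPM in hPSC and 1340 and 1500 in DE. The translationally controlled tumour protein gene TPT1 had nearly equal RNA in both stages (996 and 1070 CPM in hPSC, 997 and 1040 in DE) and footprints of 1950 and 1730 against 1120 and 898, a change of -0.85 ± 0.21. EEF1G, a subunit of the exchange factor for EEF1A1, changed by -0.59 ± 0.16 and RACK1, a scaffold on the small subunit, by -0.51 ± 0.18. None of the 6 was called by edgeR, and DESeq2 called all 6 lower.

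Sizes varied within the list. RPL3, a core large subunit protein, had a change of -0.12 ± 0.16, or -0.26 relative to the median member, with no overlap between stages after centring (DESeq2 adjusted p = 0.0233, called lower). Its footprints were 3750 and 3790 CPM in hPSC and 2580 and 2450 in DE. EEF2, the translocation factor, had a value of 0.23 ± 0.29 and overlapping libraries (1950 and 2530 CPM in hPSC, 2130 and 1480 in DE) despite the pyrimidine run at its start. PABPC1, the poly(A) binding protein, stood at 0.25 ± 0.31. RPS28 stood apart at 1.4 ± 0.79, with FLAG footprints of 222, 660, 1330 and 531 CPM that differed within each stage.

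**Figure D3:**
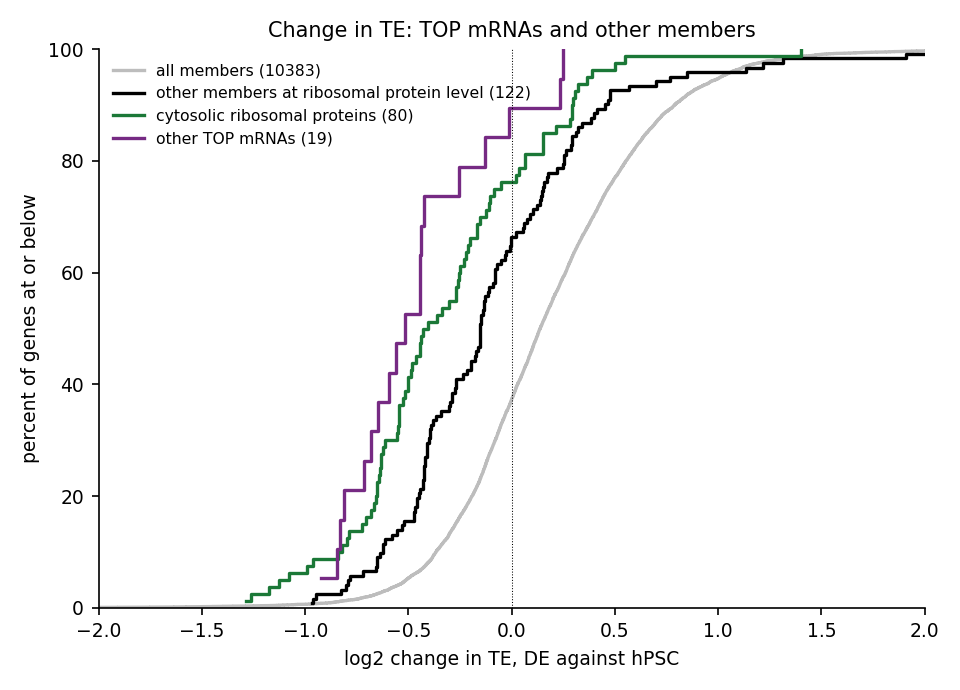
Cumulative share of genes (y, percent) at or below a given log2 change in TE, DE against hPSC (x), for all members, ribosomal protein genes, other TOP mRNAs and the 122 other members of like level. The curves of the TOP lists lie to the left, with medians of -0.42 and -0.51 against 0.14 for all members and -0.15 for the genes of like level.

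Further parts of the translation and protein turnover machinery had lower medians of smaller size. Among 36 initiation factor genes the relative median was -0.28, with 0 called by edgeR (2 higher and 1 lower at an unadjusted p under 0.05) and 5 lower and 1 higher in DESeq2. The 23 aminoacyl-tRNA synthetase genes and their partners had -0.22 (edgeR 0 called, 1 lower at an unadjusted p under 0.05; DESeq2 4 lower), and the 32 proteasome subunits -0.16 (edgeR 0 called, 1 in each direction; DESeq2 7 lower). The shares DESeq2 called lower were 13.9%, 17.4% and 21.9% in this order, against 3.86% of all members. Shares lower at an unadjusted p under 0.05 were 2.78%, 4.35% and 3.12%, against 2.22%. Those higher were 5.56%, 0% and 3.12%, against 12.7%. Without hPSC FLAG library 1 the proteasome median was -0.27 and without hPSC FLAG library 2 it was -0.09. The start motif was in 18.8% of the matched initiation factor genes and 5.26% of the synthetase genes. EIF3G, a subunit of the eIF3 complex, had a change of -0.48 ± 0.20, and EPRS1, the fused glutamyl and prolyl synthetase, one of -0.59 ± 0.24. Mitochondrial ribosomal proteins (78 members, relative median -0.11) and nuclear-encoded respiratory chain genes (74 members, -0.05) lay closer to the median member.

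The eIF4E-binding proteins had values above the median member. EIF4EBP2, a repressor of cap-dependent initiation, had less RNA in DE (481 and 483 CPM in hPSC, 307 and 301 in DE) with footprints of 22.9 and 26.7 against 25.6 and 25.2. Its change in TE was 0.70 ± 0.18 (edgeR adjusted p = 0.207, DESeq2 adjusted p = 0.00123). EIF4EBP1 had footprints of 44.9 and 57 CPM in hPSC and 95.5 and 110 in DE and a change of 0.62 ± 0.21 (edgeR adjusted p = 0.292). With total footprints the value of EIF4EBP1 was -0.06 and that of EIF4EBP2 1.55. Without DE total library 1 they were 0.01 and 0.48, and without DE total library 2 they were -0.86 and 1.74. Over the 30 genes of the mTOR and eIF4E list the relative median was 0.19, with 0 called by edgeR (6 higher at an unadjusted p under 0.05) and 1 in each direction in DESeq2.

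Among mRNAs with regulatory upstream reading frames, ATF4 had more footprints in DE at similar RNA. ATF4, the transcription factor of the integrated stress response, had RNA of 290 and 318 CPM in hPSC and 351 and 331 in DE, and footprints of 145 and 139 in hPSC and 328 and 350 in DE. Footprints rose by 1.25 and the change in TE was 1.09 ± 0.17 (edgeR adjusted p = 0.0795, DESeq2 adjusted p = 5.11e-13). The libraries of the stages did not overlap. PPP1R15B, the constitutive subunit that directs eIF2 dephosphorylation, had a change of 1.17 ± 0.21 (edgeR adjusted p = 0.128, DESeq2 adjusted p = 0.000689), with footprints of 11.5 and 12.2 CPM in hPSC and 47.9 and 37.1 in DE.

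That list as a whole was mixed. Over its 18 members, which include ATF4 and PPP1R15B, the relative median was 0.31, and no gene was called by edgeR. At an unadjusted p under 0.05 edgeR gave 4 higher (22.2%, against 12.7% of all members) and 1 lower (5.56%, against 2.22%). DESeq2 called 2 higher (11.1%, against 2.41%) and 1 lower (5.56%, against 3.86%). The 2 higher were ATF4 and PPP1R15B, which are also among the 4 above. PPP1R15A, the inducible paralogue of PPP1R15B, stood at 0.63 ± 0.31 with footprints of 1.75 and 2.61 CPM in hPSC and 11.1 and 8.23 in DE, and ATF5 at 1.07 ± 0.39 with footprints of only 1.98 to 7.25 CPM. The relative median was 0.09 with total footprints, and leaving out 1 FLAG library at a time gave 0.0 (hPSC library 1), 0.06 (DE library 1), 0.48 (DE library 2) and 0.64 (hPSC library 2).

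Polyamine genes, which carry translational control elements of their own, had values of both signs. AMD1, the decarboxylase that supplies spermidine synthesis, had RNA of 263 and 279 CPM in hPSC and 93.6 and 89.7 in DE and footprints of 133 and 112 against 15.4 and 24.1. Its change in TE was -1.04 ± 0.29 (edgeR adjusted p = 0.228, DESeq2 adjusted p = 0.00155). OAZ1, the antizyme whose translation needs a frameshift, stood at 1.47 ± 0.39 (edgeR adjusted p = 0.221), with footprints of 47.9 and 68.1 CPM in hPSC and 251 and 141 in DE. ODC1, the target of antizyme, had 0.69 ± 0.26, and AZIN1, the antizyme inhibitor, -0.26 ± 0.16. Of the 12 members edgeR called none. At an unadjusted p under 0.05 it gave 3 higher (25%, against 12.7% of all members) and 1 lower (8.33%, against 2.22%). DESeq2 called 2 lower (16.7%, against 3.86%) and 0 higher (against 2.41%).

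Signalling genes and short-lived mRNAs had medians above the median member. The 38 members of the Nodal, activin, BMP and WNT list had a relative median of 0.30, with no call in edgeR. At an unadjusted p under 0.05 edgeR gave 12 higher (31.6%, against 12.7% of all members) and 0 lower (against 2.22%). DESeq2 called 3 higher (7.89%, against 2.41%). That median was 0.16 without DE FLAG library 1, 0.18 without hPSC FLAG library 2 and 0.34 with total footprints. LEFTY1, a secreted Nodal antagonist, had RNA of 7.89 and 7.25 CPM in hPSC and 163 and 201 in DE. Its footprints were 3.41 and 2.13 CPM in hPSC and 481 and 236 in DE, a change in TE of 2.43 ± 0.51 (edgeR adjusted p = 0.169, DESeq2 adjusted p = 0.00439). RNA and footprints both rose, the latter further. LEFTY1 has the near-identical neighbour LEFTY2, so its counts may be split.

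Receptor and inhibitor genes of the pathway gave smaller values. ACVR2B, a type II activin receptor, had 181 and 177 CPM of RNA in hPSC and 161 and 176 in DE, and footprints of 6.35 and 4.95 against 13.9 and 12 (1.28 ± 0.22, edgeR adjusted p = 0.114). SMAD7, the inhibitory SMAD, changed by 1.02 ± 0.22 (edgeR adjusted p = 0.172) with footprints of 3.65 to 6.87 CPM. NODAL itself had 0.52 ± 0.35 with overlapping libraries.

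Among the 19 immediate early genes the relative median was 0.35, with no call in edgeR. At an unadjusted p under 0.05 edgeR gave 6 higher (31.6%, against 12.7% of all members) and 0 lower (against 2.22%). DESeq2 called 3 higher (15.8%, against 2.41%). Leaving out 1 FLAG library at a time gave medians from 0.17 (without DE library 1) to 0.72 (without DE library 2). With total footprints the relative median was 0.14. ZFP36L2, which binds AU-rich elements and speeds mRNA decay, had RNA of 101 and 108 CPM in hPSC and 95 and 88.6 in DE and footprints of 12.9 and 12.1 against 37.2 and 27.9. Its change in TE was 1.56 ± 0.23 (edgeR adjusted p = 0.0657, DESeq2 adjusted p = 2.82e-06). Its relative ZFP36L1 changed by 1.32 ± 0.23 (edgeR adjusted p = 0.12), with footprints of 18.7 and 21.7 CPM in hPSC and 45.2 and 33.6 in DE. JUND, an AP-1 subunit, changed by 0.94 ± 0.22 (edgeR adjusted p = 0.201). RNA of ZFP36L2 and ZFP36L1 was close to equal between stages, and their footprints did not overlap.

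Genes that mark the stages changed mostly in RNA. SOX17, a definitive endoderm transcription factor, had RNA of 1.06 and 0.959 CPM in hPSC and 264 and 269 in DE and footprints of 1.51 and 1.03 against 221 and 153. The change in TE was -0.83 ± 0.35 (edgeR adjusted p = 0.368), against 8.04 for RNA. GATA6 (-0.27 ± 0.35), EOMES (-0.14 ± 0.21), CER1 (-0.56 ± 0.31) and GSC (-0.64 ± 0.57) had RNA changes of 8.49, 7.21, 7.90 and 8.83, and none had a called change in TE. FOXA2, the pioneer factor of endoderm, stood at 1.06 ± 0.37 (edgeR adjusted p = 0.307), with footprints of 2.06 and 1.86 CPM in hPSC and 132 and 77.3 in DE. The 17 of 30 listed endoderm genes that met the count minimum had a relative median of -0.27, with no call in edgeR. At an unadjusted p under 0.05 edgeR gave 3 higher (17.6%, against 12.7% of all members) and 2 lower (11.8%, against 2.22%). CYP26A1, which degrades retinoic acid, was the 1 called lower by DESeq2 (5.88%, against 3.86%). That median was -0.12 without hPSC FLAG library 1 and -0.58 without hPSC FLAG library 2. CXCR4, GATA4 and SOX2 did not meet the minimum: CXCR4 had 4 and 5 FLAG counts in hPSC, GATA4 5 and 6, and SOX2 9.3 in DE library 1. Near the minimum, GSC entered with hPSC FLAG counts of 12 and 12, GATA6 with 18 and 14, and SOX17 with 19 and 15. The part of the minimum in the endoderm median was not tested.

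POU5F1 and NANOG lost most of their RNA and somewhat less of their footprints. POU5F1 (OCT4) had RNA of 1150 and 1170 CPM in hPSC and 23.8 and 23.3 in DE and footprints of 2130 and 2750 against 130 and 88.6. Its change in TE was 1.13 ± 0.29 (edgeR adjusted p = 0.212, DESeq2 adjusted p = 0.0543), against -5.62 for RNA. NANOG (33 and 69 DE FLAG counts) changed by 1.10 ± 0.38 (edgeR adjusted p = 0.294). PRDM14 (18 and 31 DE FLAG counts), a transcriptional regulator of pluripotency, changed by 1.66 ± 0.36 (edgeR adjusted p = 0.178). Not all members of the class had such values: DNMT3B, the de novo methyltransferase, stood at 0.25 ± 0.20, LIN28A, which blocks let-7 maturation, at -0.17 ± 0.18 and L1TD1 at -0.47 ± 0.42. Over the 22 of 30 listed pluripotency genes that met the count minimum the relative median was 0.11, and edgeR called none. The part of the minimum in the pluripotency values was not tested. At an unadjusted p under 0.05 edgeR gave 8 higher (36.4%, against 12.7% of all members) and 1 lower (4.55%, against 2.22%). DESeq2 called 3 higher (13.6%, against 2.41%) and 1 lower (4.55%, against 3.86%). The median was 0.05 without hPSC FLAG library 1 and 0.23 without DE FLAG library 2. LEFTY1 is on this list as well as on the signalling list.

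**Figure D4:**
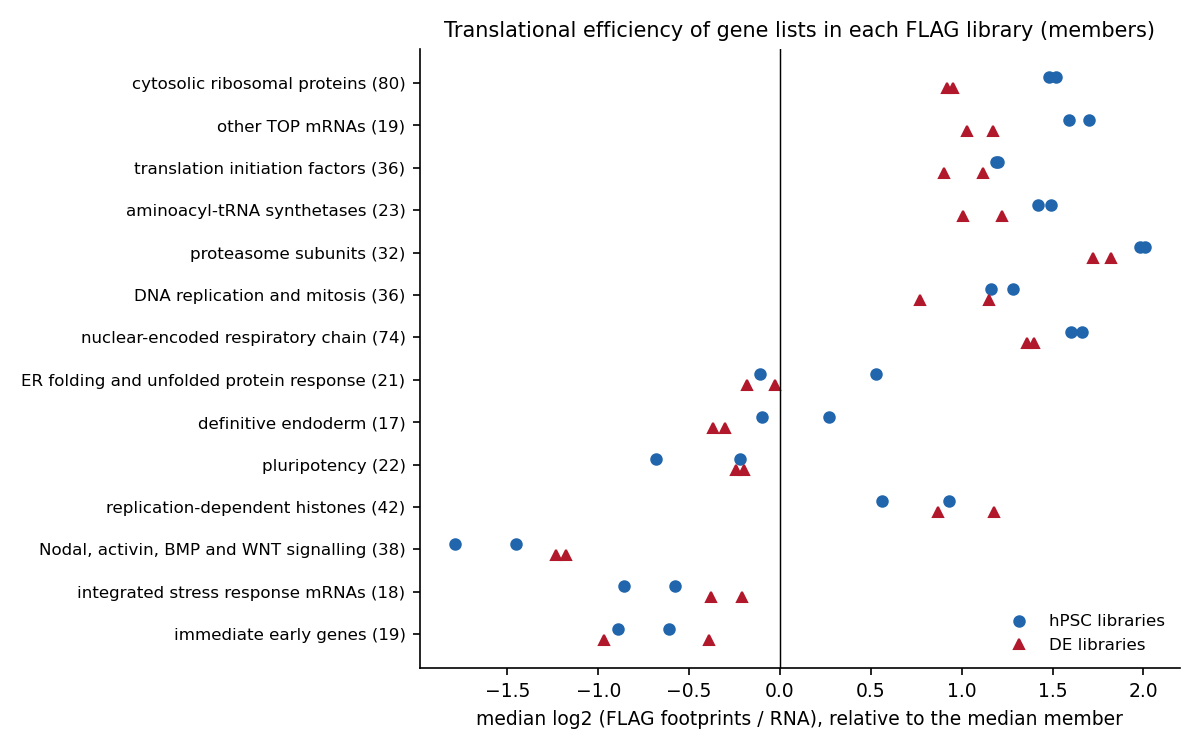
Median TE of each gene list (x, log2 of FLAG footprints over RNA relative to the median member; number of members in brackets) in the 2 hPSC (blue circles) and 2 DE (red triangles) FLAG libraries, each against the mean RNA of its stage. Ribosomal proteins sit at 1.48 and 1.52 in hPSC and 0.92 and 0.95 in DE, while for ER folding genes hPSC library 1 (0.53) stands apart from the other 3 (-0.18 to -0.03).

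Some lists had medians that lay apart with FLAG and with total footprints, which used the same RNA libraries. Tested gene by gene, the difference between the 2 changes was called in 2 of 16679 genes (0.012%) and in 0 members by edgeR, with 247 members at an unadjusted p under 0.05 and 5 called by DESeq2. Replication-dependent histones, whose mRNAs end in a stem-loop in place of a poly(A) tail, had a relative median of 0.32 with FLAG and -0.26 with total footprints over 42 members. With total footprints the median was 0.03 without DE total library 1 and -0.54 without DE total library 2. Of the 42 histone members edgeR called none in TE. At an unadjusted p under 0.05 it gave 11 higher (26.2%, against 12.7% of all members) and 0 lower (against 2.22%). DESeq2 called 2 higher (4.76%, against 2.41%). The FLAG median was 0.18 without hPSC FLAG library 1 and 0.54 without hPSC FLAG library 2. H3C12, a histone H3 gene, had FLAG footprints of 739 and 850 CPM in hPSC and 837 and 801 in DE while RNA went from 130 and 118 to 60.3 and 63.2. Its change in TE was 1.05 ± 0.18 (edgeR adjusted p = 0.113), and -0.33 with total footprints (-0.13 without DE total library 1 and -1.36 without DE total library 2). Histone genes of a family are near copies, so their counts may be split.

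ER folding and unfolded protein response genes had a relative median of -0.44 with FLAG and 0.03 with total footprints over 21 members (the latter 0.14 without DE total library 1 and -0.05 without DE total library 2). In the FLAG libraries their median TE was 0.53 in hPSC library 1, -0.11 in hPSC library 2, and -0.18 and -0.03 in DE. edgeR called none, with 2 higher (9.52%, against 12.7% of all members) and 1 lower (4.76%, against 2.22%) at an unadjusted p under 0.05. DESeq2 called 1 lower (4.76%, against 3.86%). HSPA5, the ER chaperone BiP, had FLAG footprints of 346 and 197 CPM in hPSC and 242 and 270 in DE, and a change of -0.53 ± 0.35 (edgeR adjusted p = 0.548). Without hPSC FLAG library 1 the relative median was -0.20.

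Mitochondrially encoded mRNAs are translated inside the organelle by ribosomes that lack RPL22. Their FLAG footprints were very low: the median TE of the 7 members was -7.65 and -8.14 in hPSC and -6.47 and -7.04 in DE, relative to the median member. MT-CO2, a subunit of cytochrome c oxidase, had 517 and 661 CPM of RNA in hPSC and 361 and 299 in DE but FLAG footprints of only 2.14, 1.86, 3.9 and 2.66. The relative median of the change was 0.98 with FLAG and 0.94 with total footprints. With total footprints it was 0.57 without DE total library 1 and 1.25 without DE total library 2. edgeR called none of the 7, with 4 higher (57.1%, against 12.7% of all members) and 0 lower at an unadjusted p under 0.05. DESeq2 called MT-CO2 and MT-ND4 higher (28.6%, against 2.41%). Their FLAG counts were 27 and 27 in hPSC and 21 and 43 in DE for MT-CO2, and 29 and 23 against 33 and 56 for MT-ND4. The source of these few FLAG footprints was not tested. Leaving out DE FLAG library 2 gave a relative median of 1.51.

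**Figure D5:**
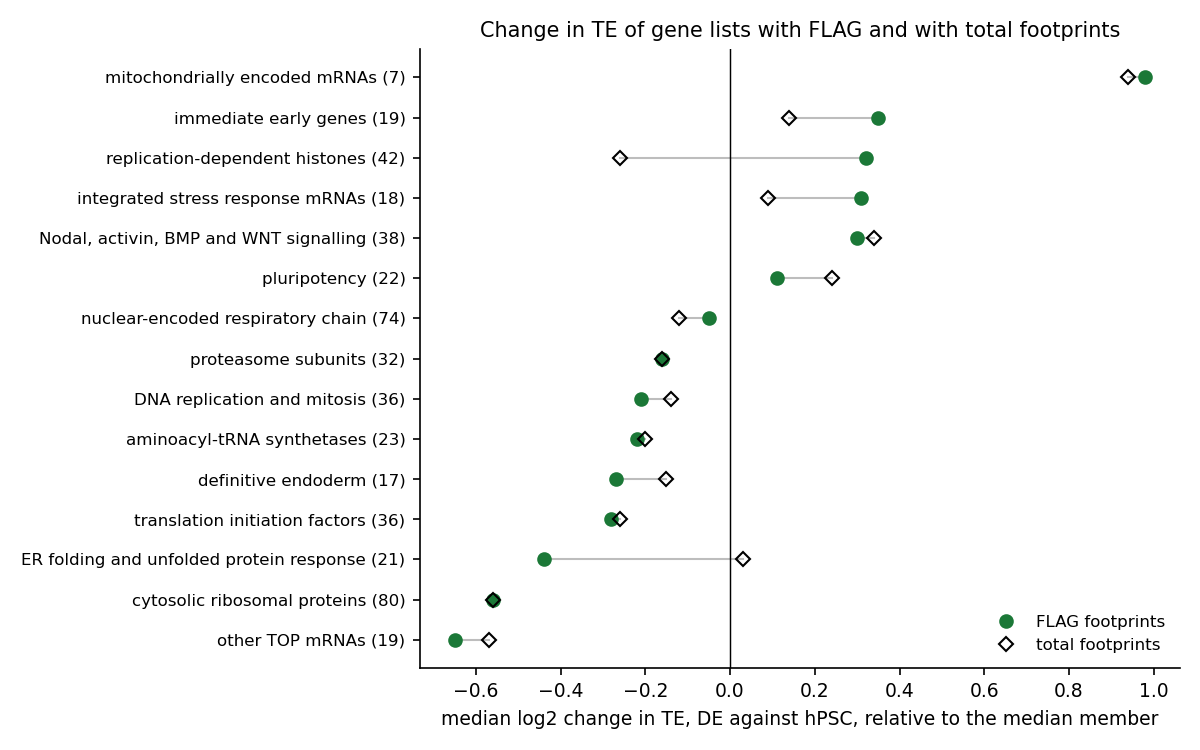
Median log2 change in TE of each list relative to the median member (x), with FLAG footprints (green circles) and total footprints (open diamonds), which share the RNA libraries. Values for ribosomal proteins coincide at -0.56, and those for histones (0.32 and -0.26) and ER folding genes (-0.44 and 0.03) lie apart, with both DE total libraries included.

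The remaining lists had relative medians between -0.21 and 0.12. Over 41 RNA-binding regulators the relative median was -0.08, with no call in edgeR. At an unadjusted p under 0.05 edgeR gave 7 higher (17.1%, against 12.7% of all members) and 1 lower (2.44%, against 2.22%). DESeq2 called 2 higher (4.88%, against 2.41%) and 5 lower (12.2%, against 3.86%). AGO2, the microRNA effector, had 0.64 ± 0.16 with footprints of 33.9 and 32.7 CPM in hPSC and 52.6 and 53.3 in DE at near-equal RNA (260, 267, 264 and 275). DDX3X, an RNA helicase, had -0.33 ± 0.16. Iron-responsive element mRNAs (11 members) had a relative median of -0.20 with 0 called by either tool and 0 at an unadjusted p under 0.05, and FTH1 and FTL, the ferritin chains, stood at -0.41 ± 0.35 and -0.70 ± 0.30. Selenoproteins (19 members, 0.11), cholesterol synthesis (23, 0.12), glycolysis (20, -0.12), DNA replication and mitosis (36, -0.21), basement membrane genes (29, -0.18), protein translocation genes (30, -0.15) and ZNF genes (373, 0.09) had no edgeR call either. Of these, ZNF genes had 59 higher and 3 lower at an unadjusted p under 0.05 (15.8% and 0.804%, against 12.7% and 2.22% of all members) and 15 higher and 2 lower in DESeq2 (4.02% and 0.536%, against 2.41% and 3.86%), and each of the other 6 lists had at most 3 in either direction by either measure. Leaving out 1 FLAG library moved several of these small medians: DNA replication to between -0.37 and -0.08, basement membrane to between -0.29 and 0.07, glycolysis to between -0.28 and -0.04, translocation to between -0.25 and -0.05, selenoproteins to between -0.05 and 0.22, ZNF genes to between -0.10 and 0.18, cholesterol synthesis to between 0.05 and 0.15, and iron-responsive element mRNAs to between -0.31 and -0.12. Mesoderm, ectoderm and extraembryonic lists kept 1, 3 and 1 members and are not described further.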

How the data were processed

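RNA and FLAG-immunoprecipitated footprints were compared over 8 libraries in 4 groups of 2, and total footprints of both stages served as an alternative. The deposited table holds expected counts (estimated, not always whole) for 57808 genes in 18 libraries; 16.8% to 31.3% of a library's values were fractional, and all were rounded. Per the submitters' processing notes the authors used Salmon, DESeq2, UMI-tools, cutadapt and Bowtie with GRCh38, with no versions or roles given. RNA was depleted of ribosomal RNA with RNase H and footprints were cut with RNase I without cycloheximide, per the labels' protocols. The annotation release is not given in the sources used here. Protein-coding genes were taken from RefSeq by identifier or symbol, and 57030 identifiers (98.7%) were found in the gene name table.

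Fits used edgeR 4.0.16 under R 4.3.3 (filterByExpr, TMM, robust quasi-likelihood F test on group means, Benjamini-Hochberg over all genes tested, threshold 0.05), with the contrast of assay by stage. DESeq2 1.42.0 and limma 3.58.1 gave alternatives. The script was tested on simulated data. TE of a FLAG library is its log2 CPM (prior count 2) minus the mean RNA of its stage, and it is given relative to the median member. Overlap between stages was judged with each FLAG library against each RNA library of its stage. Replicate numbers were not taken as pairs, since correlations of replicate differences between groups ran from -0.43 to 0.25.

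Named genes are up to 12 per direction among called members whose mean log2 CPM was 3 or more and whose libraries did not overlap, and a list of 45 genes. Genes outside this rule were named after their values were seen: SLC2A3, RGPD8, RANBP2, AP3S2, RPL31, RPL34, RPL23A, RPS28, EEF1G, RACK1, EIF3G, EPRS1, EIF4EBP2, PPP1R15B, ACVR2B, SMAD7, ZFP36L1, ZFP36L2, JUND, PRDM14, CYP26A1, H3C12, MT-CO2, MT-ND4, AGO2 and DDX3X. The members and the 29 gene lists were chosen with earlier results of these data known, so lists are described by counts and medians and not tested. Protein length was not analysed here, and 1 called gene is not reported here. Figures were drawn with matplotlib 3.10.9 under Python 3.11.15.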

Additional observations from a re-analysis of the deposited data

How the results depend on the processing

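The count of called members (10) stayed within 1.5 times with RLE factors, TMM factors from protein-coding nuclear genes, upper-quartile factors, a fit of the members only, a fit of 12 libraries, and a replicate block with the numbers of DE FLAG libraries exchanged (14, added after the data were seen). It was 23 without a filter on low counts, 651 with DESeq2, 5 with limma voom and quality weights, 3 in a test against a 1.5-fold change, and 24 with total footprints. The genes behind the count changed. Of the 10 genes, 9 stayed called in the fit of the members only and 8 with RLE factors. The fit of 12 libraries kept 7 and upper-quartile factors kept 6. Limma voom kept 4, total footprints 4 and the test against a 1.5-fold change 3. A replicate block over all groups called 0 members and a replicate block within stage 20, and the adjusted p of the 10 genes was 0.0615 to 0.133 under the former. The numbers are not shown to pair the libraries. Leaving out 1 library gave 0 to 3095. The difference between FLAG and total footprints (0 members) gave 24 members without a filter and 5 with DESeq2, 0 with a replicate block, and 0 to 3 when 1 library was left out. The cause of these shifts was not tested. Leaving out a library lowers the residual degrees of freedom from 4, whichever library it is.

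Of the changes relative to the median member, with total footprints TTN (1.0), H3C12 (-0.40), DDX3X (0.03), PPP1R15A (-0.37), FTL (0.51), DNMT3B (-0.16), FOXA2 (-0.25), LIN28A (0.49), AZIN1 (0.03), EEF2 (-0.58) and EIF4EBP1 (-0.13) took the other sign. When 1 library was left out, SLC2A3 (-0.09 to 0.37), PABPC1 (-0.20 to 0.37), DNMT3B (-0.01 to 0.25) and EEF2 (-0.22 to 0.38) took either sign, and it was a FLAG library each time that turned it. With total footprints and 1 DE total library left out (added after the data were seen), TTN, EIF4EBP1 and H3C12 were at 1.8, -0.56 and -1.06 without library 2 and at -0.65, 0.19 and 0.05, the sign seen with FLAG footprints, without library 1. In all 22 of 1436 values over 68 named genes took the other sign. DE FLAG library 1 had 6606248 counts, the median SE was 0.27 and the smallest change called was 1.5; the part of depth in the calls was not tested.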

Other observations

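Outside the protein-coding genes with at least 10 counts in every library, 24 genes were called for a change in TE by edgeR: 4 small nucleolar RNAs, 4 long noncoding RNAs, 5 pseudogenes, 2 transcribed pseudogenes, 3 protein-coding genes below the count minimum and 6 without an entry in RefSeq. Among the small nucleolar RNAs, which guide the modification of ribosomal RNA and are not translated, SNORA71B was at 4.24 ± 0.50 and SNORA53 at -2.34 ± 0.20 on the log2 scale. NORAD, a long noncoding RNA that binds Pumilio proteins, was at 1.97 ± 0.20 (adjusted p = 0.0345). Pseudogenes share sequence with their parent genes.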
